A study of Rattus norvegicus with 12 samples.

Results

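The genes described here are 10 genes of autophagy and the lysosome, chosen by name from 20263 genes measured in a study of glucose, resveratrol and a sirtuin inhibitor. In the order of their roles they are TFEB (ENSG00000112561), ULK1 (ENSG00000177169), BECN1 (ENSG00000126581), WIPI1 (ENSG00000070540), ATG5 (ENSG00000057663), ATG7 (ENSG00000197548), MAP1LC3B (ENSG00000140941), GABARAPL1 (ENSG00000139112), SQSTM1 (ENSG00000161011) and LAMP1 (ENSG00000185896). All 10 were present in the tables of the high-glucose groups, and all 10 passed the filter on low values. The tables list human Ensembl identifiers without names, so each symbol is the one given with its identifier when the genes were chosen. The labels give rat cells, while all 20263 identifiers carry the human prefix ENSG. None of them (0 of 20263) could therefore match a rat gene table, and that count does not bear on the species. The species behind the values is not settled here.

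Autophagy encloses cytoplasm in a double membrane and delivers it to the lysosome, where it is broken down and its building blocks are reused. A kinase complex starts the process, a lipid kinase complex marks the membrane, and conjugation enzymes attach ubiquitin-like proteins of the ATG8 family to it, which bind the cargo receptors. In heart muscle cells, which are rarely replaced, this turnover is known for removing damaged mitochondria and protein aggregates. Much of its activity is set by phosphorylation and by protein turnover, so the messenger RNA levels below do not measure the rate of autophagy.

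Poly(A)-selected RNA of H9C2, a cell line from embryonic rat heart labelled as wild-type cardiomyocytes, was sequenced in 4 groups of 3 biological replicates, each held for 48 h. HG-Res-SIRT7-Inh cells received 100 mM glucose, 5 µM resveratrol and 5 µM SirReal2, which the labels call a SIRT7 inhibitor and which is generally sold as an inhibitor of SIRT2. HG-Res cells received 100 mM glucose and 5 µM resveratrol, a plant polyphenol often used to activate sirtuins, and HG cells received 100 mM glucose without a drug. Ctrl cells were kept in 5.5 mM glucose without a drug. No osmotic control, vehicle or inhibitor-alone group is described, so glucose cannot be told apart from osmotic load, and the inhibitor was seen on top of resveratrol alone. Markers of heart muscle or of other cell types could not be looked up without gene names and were not analysed here.

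Levels are in CPM, which divide the reads of each gene by the size of its library. They are not scaled by gene length and therefore rank libraries for 1 gene, not genes against each other. The depth recovered from the values was 30.3 to 33.2 M reads per high-glucose library. Behind the lowest value of the 10 genes (TFEB in HG-Res-SIRT7-Inh replicate 3) stood about 109 reads, for which counting alone gives an error of 9.58%, and behind the highest (LAMP1 in HG-Res-SIRT7-Inh replicate 1) about 15095.

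HG-Res-SIRT7-Inh replicate 3 and HG replicate 2 stood apart from the other high-glucose libraries. The first had the lowest or highest level of all 9 libraries in 9 of the 10 genes, 5 at the low end (TFEB, ULK1, WIPI1, SQSTM1 and LAMP1) and 4 at the high end (ATG5, ATG7, MAP1LC3B and GABARAPL1). It did so in 68% of all genes tested. HG replicate 2 did so in 1 of the 10, TFEB, and in 41.3% of all genes tested. Its median deviation from its group was 0.11 in the 10 and 0.19 over all genes, so it stood apart less in the 10. HG-Res-SIRT7-Inh replicate 1 was lowest or highest in 4 of the 10 and HG replicate 3 in 3. Among genes with a mean of at least 1 CPM these 2 libraries were so in 26.26% and 13.79%. HG-Res-SIRT7-Inh replicate 3 and HG replicate 2 deviated from their own groups in opposite directions in 7 of the 10 genes. The share over all genes was not computed, so whether this count is particular to the 10 is not known. Because HG-Res-SIRT7-Inh replicate 3 and HG replicate 2 stood apart over all genes, the changes of all 10 genes are plotted with and without them for every comparison of high-glucose cells.

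**Figure D1:**
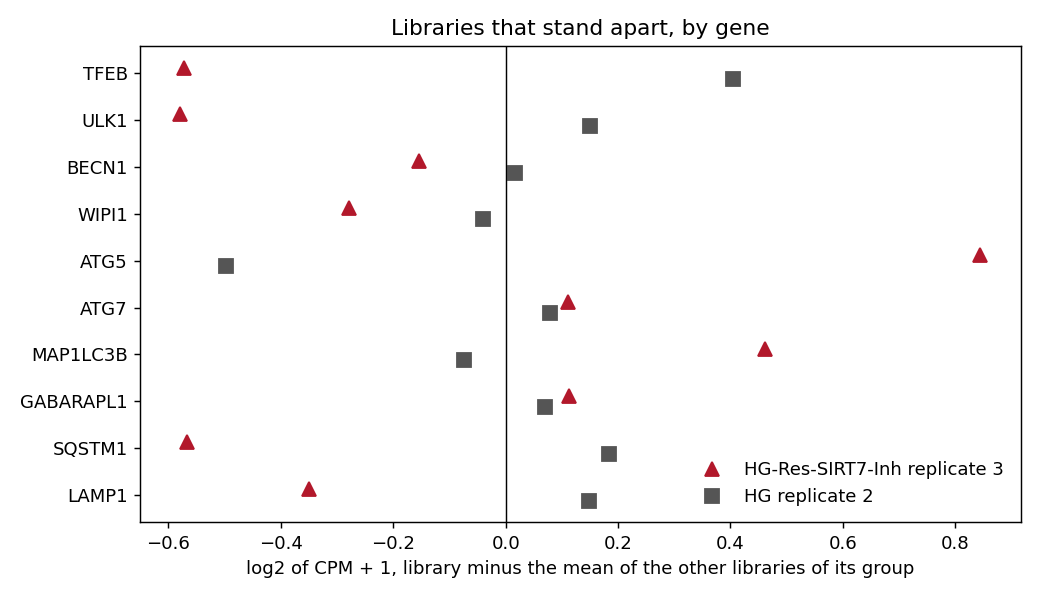
For each of the 10 genes, the horizontal axis gives the difference on the log2(CPM + 1) scale between HG-Res-SIRT7-Inh replicate 3 (triangles) or HG replicate 2 (squares) and the mean of the other libraries of the same group. ATG5 lies farthest out in both, at 0.84 in HG-Res-SIRT7-Inh replicate 3 and -0.50 in HG replicate 2.

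TFEB, a transcription factor, binds a motif with the core CACGTG in front of many genes of the lysosome and of autophagy. To show what that means for the genes at hand, the 250 bases before the start of the rat genes with the same symbols were searched for CACGTG, which reads the same on both strands. Of the 10 symbols 9 were in the table (RefSeq, GRCr8), and 2 of these held the core, Lamp1 with 5 copies and Atg5 with 1. Of all 33469 genes listed by RefSeq, 5.59% held it, and 0.003% held at least 5 copies, a share that Lamp1 itself makes up. Lamp1 lies at chr16:83075064-83075313 on the minus strand and Atg5 at chr20:49380585-49380834 on the plus strand. Both are printed 5′ to 3′ with the core in capitals.
Lamp1: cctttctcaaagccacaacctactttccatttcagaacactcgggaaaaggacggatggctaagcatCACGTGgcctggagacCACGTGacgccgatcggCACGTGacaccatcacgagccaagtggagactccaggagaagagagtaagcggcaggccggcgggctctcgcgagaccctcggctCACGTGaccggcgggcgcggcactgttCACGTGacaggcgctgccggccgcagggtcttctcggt
Atg5: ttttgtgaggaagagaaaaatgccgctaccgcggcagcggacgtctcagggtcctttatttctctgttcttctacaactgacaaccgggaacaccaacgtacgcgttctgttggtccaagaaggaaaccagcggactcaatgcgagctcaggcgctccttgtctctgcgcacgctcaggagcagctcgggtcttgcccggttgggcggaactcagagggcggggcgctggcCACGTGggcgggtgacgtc
The match describes the rat reference alone, and no binding was measured.

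The first comparison asked how high glucose changed these genes. ULK1, the kinase that starts autophagy, is the gene of the 10 for which the deposited data give this comparison. It was at 20.78, 23.94 and 22.21 CPM in HG and at 36.13, 35.7 and 37.15 CPM in Ctrl. The HG libraries thus all lay below the Ctrl libraries, and the HG mean of 22.3 ± 1.58 CPM was 61.4% of the Ctrl mean of 36.3 ± 0.745 CPM (SD, n = 3 each). The authors' deposited table gave ULK1 a log2 fold change of -0.64 with a q-value of 1.99e-08.

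That table holds the 354 genes its authors marked, each with an unadjusted p-value under 0.05 and a change of more than 1.5-fold, so 1 of the 10 genes was in it, and 1.75% of the 20263 genes of the other tables were. For the remaining 9 genes, Ctrl levels were not analysed here. ULK1 remained below Ctrl with either treatment, at 28.11, 26.84 and 18.06 CPM in HG-Res-SIRT7-Inh and 25.26, 24.32 and 24.04 CPM in HG-Res. The group means were 67% and 67.6% of the Ctrl mean, and no library of these groups reached the lowest Ctrl value. An exact two-sided permutation test gave p = 0.1 for each of the 3 high-glucose groups against Ctrl, the smallest p that 3 libraries against 3 allow. ULK1 entered this comparison because the authors' test had marked it, so these 3 tests add no independent evidence.

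**Figure D2:**
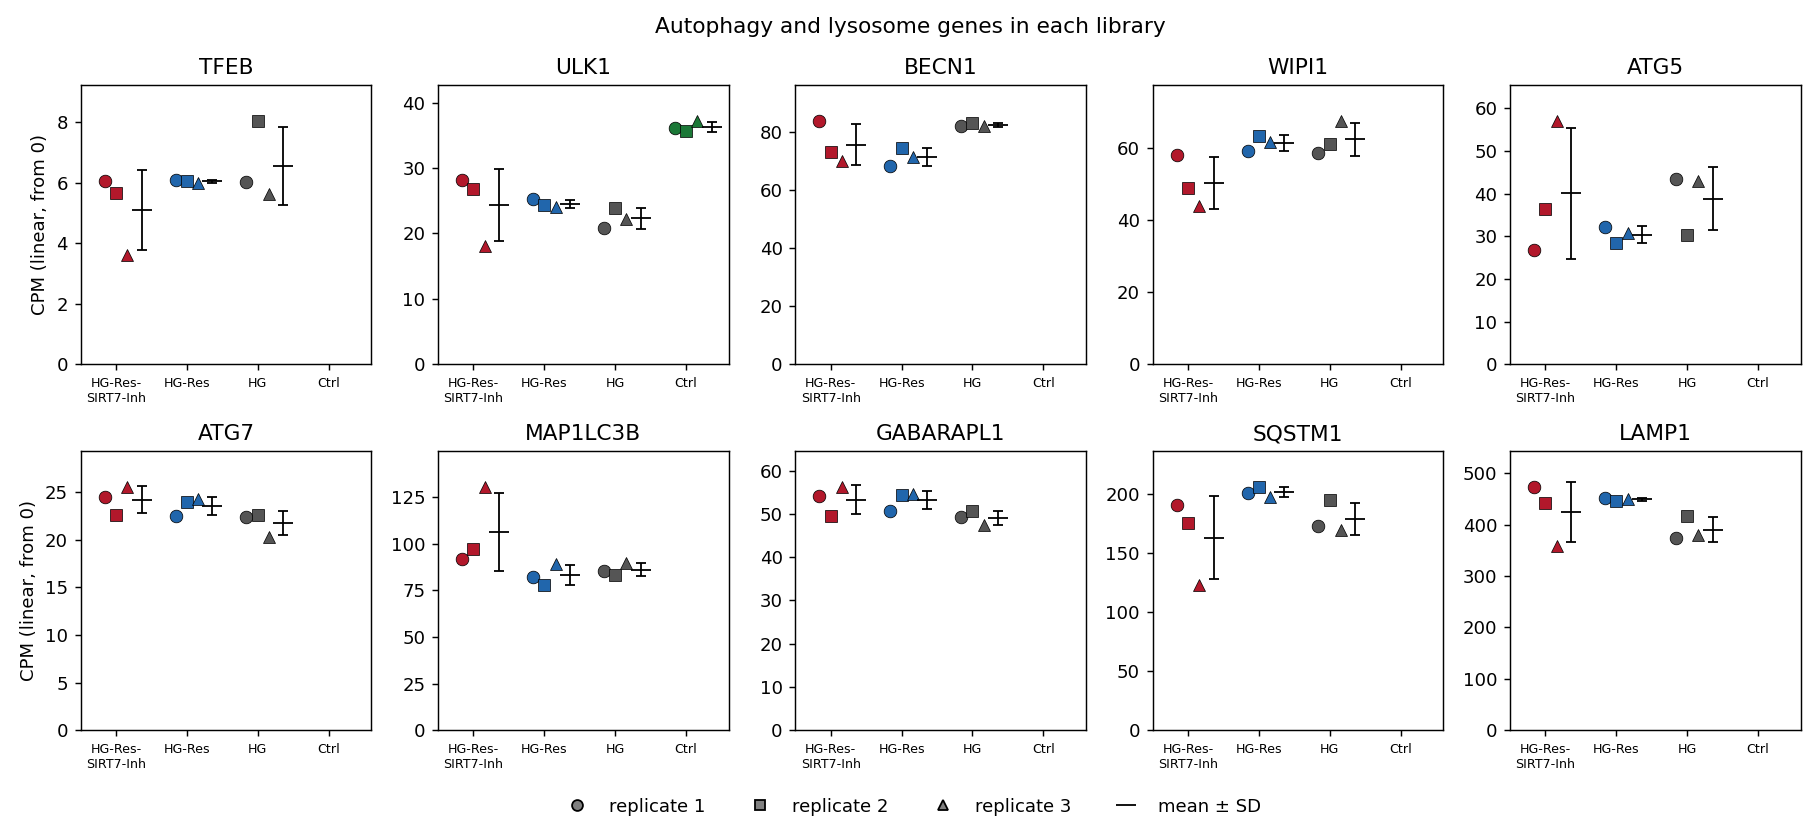
Each panel gives 1 gene, with its level in CPM on a linear axis from 0, every library as a point (circle, square and triangle for replicates 1, 2 and 3) and the group mean ± SD beside it. Ctrl values are shown for ULK1 alone, where the 9 high-glucose libraries lie between 18.06 and 28.11 CPM, below the 3 Ctrl libraries.

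Resveratrol was tested against the same high glucose without it. Between HG-Res and HG, none of the 10 genes passed limma's adjusted p of 0.05, with adjusted p from 0.535 to 0.988. At an unadjusted p under 0.05 the limma count was also 0, where 10.7% of all genes passed. By the authors' deposited table, 0 of the 10 had a q-value under 0.05, against 5.38% of its genes, while 3 had an unadjusted p-value under 0.05, against 13.1%. The 3 were LAMP1 (p = 0.0183), ATG5 (p = 0.0242) and BECN1 (p = 0.0268), from a test by the authors that is not described. Both shares are over all 20263 genes, also those below the filter on low values that all 10 passed. They are therefore not shares of genes with levels like these. Over all 12854 genes tested, 0.708% passed the adjusted threshold. The 10 changes had a median of 0.04 on the log2(CPM + 1) scale, beside -0.0005 over all genes, and ran from -0.33 to 0.20. Their median size without regard to sign was 0.12, the same as over all genes (0.12). The 95% intervals of 9 of the 10 lay within a 1.5-fold change in either direction, and that of ATG5 did not. This fit shares its spread with the inhibitor libraries, which varied more. With HG-Res and HG fitted alone, 4.84% of the genes tested passed and still none of the 10. The lowest limma adjusted p of the 10 were then 0.0993 (LAMP1) and 0.104 (BECN1).

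Replicate values of HG-Res and HG did not overlap in 4 of the 10 genes, against 29.9% of all genes tested. LAMP1, a glycoprotein that lines the lysosomal membrane, had 451.83, 445.52 and 449.69 CPM in HG-Res and 374.01, 417.56 and 379.47 CPM in HG. All HG-Res values were above all HG values, by 0.20 ± 0.11 on the log2 scale (SE, limma adjusted p = 0.588). SQSTM1, the cargo receptor p62 that is itself degraded by autophagy, had 200.93, 205.56 and 197.19 CPM in HG-Res and 173.05, 194.68 and 169.69 CPM in HG. These groups did not overlap either, with a difference of 0.17 ± 0.15 (limma adjusted p = 0.791).

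BECN1, a subunit of the lipid kinase complex, was the gene whose HG-Res values all lay below those of HG. It had 68.29, 74.69 and 71.52 CPM in HG-Res and 82.06, 83.13 and 82.19 CPM in HG, a difference of -0.20 ± 0.10 (limma adjusted p = 0.535). ULK1 was the fourth gene without overlap, with the values given above and a difference of 0.13 ± 0.16 (limma adjusted p = 0.856). ATG5, which joins ATG12 in the complex that drives conjugation of the ATG8 proteins, had 32.06, 28.3 and 30.81 CPM in HG-Res and 43.36, 30.24 and 42.82 CPM in HG. Its largest gap was within HG, where replicate 2 lay inside the HG-Res range, and the difference of -0.33 ± 0.24 did not pass (limma adjusted p = 0.733).

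Without HG-Res-SIRT7-Inh replicate 3 and HG replicate 2, 3 of the 10 genes passed in limma between HG-Res and HG, against 21.5% of all genes tested in that fit. LAMP1 rose by 0.25 ± 0.05 (SE, limma adjusted p = 0.0144), SQSTM1 rose by 0.23 ± 0.06 (limma adjusted p = 0.0268) and ATG5 fell by 0.49 ± 0.12 (limma adjusted p = 0.0213). Over that and the other alternatives the adjusted p ran from 0.0144 to 1 for LAMP1, from 0.0268 to 1 for SQSTM1 and from 0.0213 to 1 for ATG5. A count of 3 in 10 is close to the share over all genes in that fit, and the 2 libraries were chosen because they stood apart.

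The effect of SirReal2 on top of resveratrol was tested next, in HG-Res-SIRT7-Inh against HG-Res cells. None of the 10 genes passed limma's adjusted p of 0.05, while 6.07% of all genes tested did. At an unadjusted p under 0.05 there were 2, MAP1LC3B and WIPI1, against 24.6% of all genes. With the 2 compared groups fitted alone, 3.24% of the genes tested passed the adjusted threshold and none of the 10. The authors' deposited table had 0 of the 10 at a q-value under 0.05, against 5.65% of its genes, and 1, WIPI1, at an unadjusted p-value under 0.05, against 16.7%. The changes had a median of -0.02, beside 0.04 over all genes, and a median size of 0.16, beside 0.21. Groups did not overlap in 3 of the 10 genes, against 33.7% of all genes.

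MAP1LC3B encodes LC3B, the ATG8 protein most used as a marker of autophagosomes. It had 91.64, 97.02 and 130.27 CPM in HG-Res-SIRT7-Inh and 82.41, 78.01 and 88.91 CPM in HG-Res. Every inhibitor library was above every HG-Res library, replicate 3 by far the most, and the difference was 0.34 ± 0.14 (SE, limma adjusted p = 0.17). In the fit without the 2 libraries that stood apart, none of the 10 genes passed here either, where 18.9% of all genes did, and for MAP1LC3B the difference was 0.18 ± 0.07 (limma adjusted p = 0.107).

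WIPI1 binds the lipid that the BECN1 complex produces, and had 58.01, 48.93 and 43.74 CPM in HG-Res-SIRT7-Inh against 59.07, 63.33 and 61.58 CPM in HG-Res. All inhibitor libraries were lower, replicate 1 only just, with a difference of -0.29 ± 0.12 (limma adjusted p = 0.176). Leaving out that replicate alone, HG-Res-SIRT7-Inh replicate 1, gave WIPI1 a difference of -0.40 ± 0.11 (limma adjusted p = 0.0466, over all alternatives 0.0466 to 0.415), the 1 of 10 genes to pass, in a fit where 13.8% of all genes passed. Leaving out replicate 3 in its place gave WIPI1 -0.20 ± 0.10 (limma adjusted p = 0.249), and leaving out both libraries that stood apart gave -0.20 ± 0.09 (limma adjusted p = 0.153).

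SQSTM1 had 190.51, 175.39 and 123.04 CPM in HG-Res-SIRT7-Inh, all below its HG-Res libraries, with a difference of -0.33 ± 0.15 (limma adjusted p = 0.219). Replicate 3 again lay farthest out, and without it and HG replicate 2 the difference was -0.14 ± 0.06 (limma adjusted p = 0.134). ATG5 was at 26.77, 36.44 and 56.91 CPM in HG-Res-SIRT7-Inh, a span that covers every HG-Res and HG value. Its difference from HG-Res was 0.32 ± 0.24 (limma adjusted p = 0.402) with all libraries and 0.04 ± 0.12 (limma adjusted p = 0.836) without those 2.

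The other genes overlapped between cells with and without the inhibitor. TFEB had 6.04, 5.65 and 3.6 CPM in HG-Res-SIRT7-Inh and 6.08, 6.04 and 5.99 CPM in HG-Res, so that replicate 3 alone was far below. The difference was -0.23 ± 0.17 (limma adjusted p = 0.399), and -0.04 ± 0.08 (limma adjusted p = 0.748) without the libraries that stood apart. LAMP1 had 472.62, 442.7 and 358.55 CPM with the inhibitor, on both sides of its narrow HG-Res range (limma adjusted p = 0.604). BECN1 had 83.78, 73.1 and 70.22 CPM with the inhibitor and overlapped likewise (limma adjusted p = 0.614).

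ATG7, the activating enzyme of both conjugation systems, and GABARAPL1, a second ATG8 protein, had the narrowest spread of the 10 among the inhibitor libraries, with an SD of 5.98% and 6.31% of the mean. ATG7 had 24.45, 22.63 and 25.49 CPM in HG-Res-SIRT7-Inh and 22.49, 23.9 and 24.26 CPM in HG-Res, a difference of 0.04 with a 95% interval from -0.18 to 0.26. GABARAPL1 had 54.16, 49.57 and 56.12 CPM in HG-Res-SIRT7-Inh and 50.7, 54.23 and 54.47 CPM in HG-Res, a difference of 0.0029 with an interval from -0.21 to 0.22. As folds, these intervals run from 0.881 to 1.193 for ATG7 and from 0.864 to 1.162 for GABARAPL1. They rest on the spread pooled with HG-Res and HG, whose libraries varied less than those with the inhibitor. With the 2 compared groups fitted alone, the SE rose from 0.098 to 0.115 for ATG7 and from 0.095 to 0.117 for GABARAPL1. The pooled intervals therefore set no firm bound on the change.

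Cells given both drugs were also tested against cells given neither, HG-Res-SIRT7-Inh against HG. Again none of the 10 genes passed limma's adjusted p of 0.05, while 10.8% of all genes tested did. At an unadjusted p under 0.05 there was 1, WIPI1, against 27.9% of all genes. These shares depend on the spread shared with HG-Res. With the 2 compared groups fitted alone, 3.32% of the genes tested passed the adjusted threshold and none of the 10. The authors' deposited table had 0 of the 10 at a q-value under 0.05, against 5.2% of its genes, and 0 at an unadjusted p-value under 0.05, against 14.5%. The median change was 0.05, beside 0.04 over all genes. This comparison shares its libraries with the others, so its values are not independent of them.

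WIPI1 had 58.57, 61.05 and 67.34 CPM in HG, above all its HG-Res-SIRT7-Inh values, with a difference of -0.31 ± 0.12 (SE, limma adjusted p = 0.127). With that first inhibitor replicate left out it was -0.42 ± 0.11 (limma adjusted p = 0.0354, over all alternatives 0.0354 to 0.296), the 1 of 10 genes to pass there, where 16.9% of all genes passed. Without HG-Res-SIRT7-Inh replicate 3 in its place WIPI1 was at -0.22 ± 0.10 (limma adjusted p = 0.142), and without both libraries that stood apart at -0.23 ± 0.10 (limma adjusted p = 0.106). MAP1LC3B had 85.39, 83.13 and 89.81 CPM in HG, below all its HG-Res-SIRT7-Inh values, with a difference of 0.28 ± 0.14 (limma adjusted p = 0.206). That difference was 0.13 ± 0.08 (limma adjusted p = 0.276) without HG-Res-SIRT7-Inh replicate 3 and 0.11 ± 0.08 (limma adjusted p = 0.341) without both. ATG7 had 22.42, 22.61 and 20.32 CPM in HG and was the third gene of 10 without overlap, against 28.1% of all genes, with a difference of 0.14 ± 0.10 (limma adjusted p = 0.353).

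TFEB had 6.01, 8.02 and 5.63 CPM in HG, and its difference of -0.32 ± 0.17 (limma adjusted p = 0.254) changed with the libraries that stood apart. Without both it was 0.01 ± 0.09 (limma adjusted p = 0.972). SQSTM1 likewise was at -0.16 ± 0.15 (limma adjusted p = 0.519) with all libraries and at 0.09 ± 0.06 (limma adjusted p = 0.311) without both. GABARAPL1 had 49.17, 50.74 and 47.48 CPM in HG, overlapping its HG-Res-SIRT7-Inh values, with a difference of 0.11 ± 0.10 (limma adjusted p = 0.456).

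ULK1, LAMP1 and ATG5 passed or missed the threshold depending on which libraries were used. With all 9 libraries their differences between HG-Res-SIRT7-Inh and HG were 0.10 ± 0.16, 0.11 ± 0.11 and -0.0041 ± 0.24 (SE, limma adjusted p = 0.705, 0.527 and 0.993). Without HG-Res-SIRT7-Inh replicate 3 ULK1 rose by 0.29 ± 0.08 (limma adjusted p = 0.0379) and LAMP1 rose by 0.23 ± 0.07 (limma adjusted p = 0.0448), 2 of 10 genes where 21% of all genes passed. Without that library and HG replicate 2, 3 of 10 passed, where 31.2% of all genes did: ULK1 rose by 0.34 ± 0.07 (limma adjusted p = 0.00867), LAMP1 rose by 0.28 ± 0.06 (limma adjusted p = 0.00725) and ATG5 fell by 0.45 ± 0.13 (limma adjusted p = 0.0266). Over all alternatives the adjusted p ran from 0.00867 to 0.96 for ULK1, from 0.00725 to 0.855 for LAMP1 and from 0.0266 to 1 for ATG5.

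**Figure D3:**
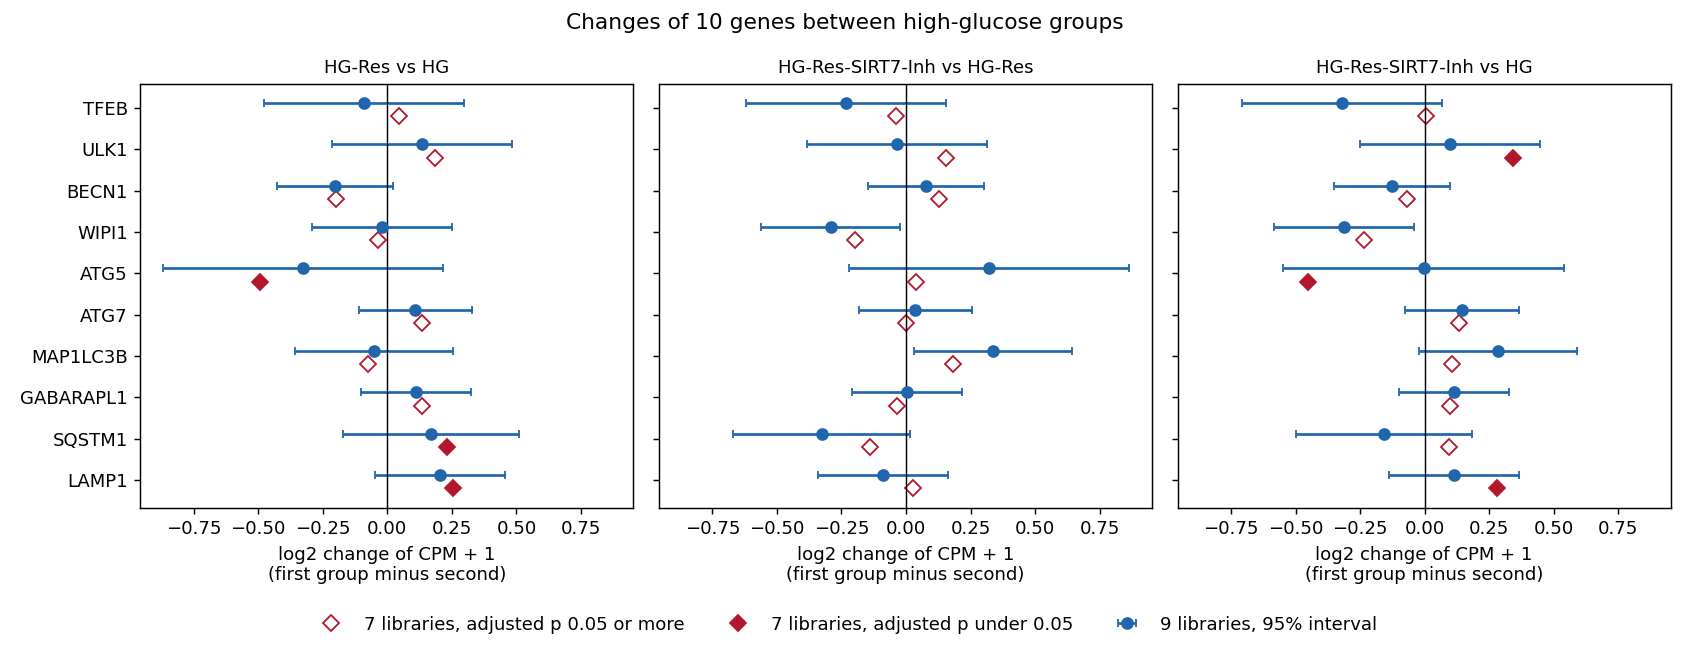
Circles with bars give the change of each gene on the log2(CPM + 1) scale, first-named group minus the second, with its 95% interval from all 9 libraries, and diamonds give the change without HG-Res-SIRT7-Inh replicate 3 and HG replicate 2, filled where limma's adjusted p was under 0.05. With 9 libraries no gene passed in any panel, and with 7 libraries 3 passed in the left panel, 0 in the middle one and 3 in the right one.

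The replicate spread of the 10 genes was widest with the inhibitor and narrowest in HG-Res. On the log2 scale the 10 genes had a median SD of 0.24 among HG-Res-SIRT7-Inh libraries (0.24 over all genes), of 0.05 among HG-Res libraries (0.07) and of 0.09 among HG libraries (0.13). ATG5 had the widest spread of the 10 in HG-Res-SIRT7-Inh (0.53) and in HG (0.29), and MAP1LC3B in HG-Res (0.09). Over the 9 libraries the highest level was 2.23 times the lowest in TFEB and 2.13 times in ATG5, and between 1.18 times (GABARAPL1) and 1.67 times (SQSTM1) in the other 8.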

How the data were processed

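Per the labels, libraries were poly(A)-selected and sequenced as paired ends on a NovaSeq. Per the submitters' processing notes, Trimmomatic was used and the build was rn6; the sources used here name no aligner, counter, annotation or test. The deposited headers call the values TPM, but low values are whole multiples of about 0.03, within rounding for at least 99.81%. For that reason they were read as deposited CPM. Full columns share a fixed sum, which would hold for either unit. A stricter whole-read check failed, and no count model was run. The authors' deposited log2 fold changes, p-values and q-values are quoted as theirs.

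A gene was tested if 3 or more of the 9 high-glucose libraries had 0.5 CPM or more (12854 genes), as log2(CPM + 1) with limma 3.58.1 in R 4.3.3, in 1 fit over the 3 high-glucose groups with an intensity trend, no block and Benjamini-Hochberg adjustment at 0.05 over all genes tested. This scale understates changes of low genes. The fit was tested on simulated data. P-values measure the spread between libraries labelled biological replicates, pooled for each gene over the 3 high-glucose groups. The errors for HG-Res against HG therefore also carry the wider spread of the inhibitor libraries. Those of the inhibitor comparisons likewise carry the narrower spread of the groups without it. Replicate numbers do not pair libraries by the labels. All 10 genes are named whatever their values. The genes, settings and alternatives were chosen with earlier results of these data known. Wider pathway and cell type lists needed names and were not used, and correlations between genes across libraries are not given, since 2 libraries stand apart.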

Additional observations from a re-analysis of the deposited data

How the results depend on the processing

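The 3 comparisons of high-glucose cells were repeated under 17 alternatives each. The count of genes passing was 0 in all 3 comparisons at baseline and stayed 0 with a pseudocount of 0.1, no filter, median-of-ratios scaling, a single prior variance, the compared groups alone and the authors' q-values. With the replicate number as a block it was 0 in each as well. Deviations of same-numbered libraries correlated by over 0.1 in 4 of 9 pairs (-0.547 to 0.636), and 5 of 18 best matches fell on the same number. These values cannot decide whether libraries were paired, since deviations within groups of 3 depend on each other and 2 libraries stood apart. The numbers were not taken as pairs because the labels do not pair them. Leaving out single libraries gave 0 to 0 genes for HG-Res against HG, 0 to 1 in the second (HG-Res-SIRT7-Inh against HG-Res) and 0 to 2 in the last (HG-Res-SIRT7-Inh against HG). Without both libraries that stood apart it was 3 in the first and 3 in the last. The glucose list held 1 of the 10 genes at a q-value under 0.05 and 0 at 2-fold or more. The planned count test was not run.

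Of 510 changes of single genes under the alternatives, the authors' deposited ones among them, 475 kept direction and side of the threshold. Another 10 came to pass it and 25 changed sign, and the cause was not tested. The sign could not change with the replicate block, no filter, a single prior variance or the compared groups alone. The same holds for leaving out a library outside the comparison. The 475 therefore overstate how stable the directions were. Leaving out single libraries, the ranges that crossed 0 were, for HG-Res against HG, -0.18 to 0.046 (TFEB) and -0.064 to 0.035 (WIPI1). In the second they were -0.15 to 0.16 (ULK1), -0.0009 to 0.082 (ATG7), -0.035 to 0.053 (GABARAPL1) and -0.17 to 0.027 (LAMP1). In the last they were -0.015 to 0.29 (ULK1), -0.29 to 0.24 (ATG5) and -0.28 to 0.032 (SQSTM1). Without both libraries the sign changed for TFEB (0.046) in the first comparison, for ULK1 (0.16), ATG7 (-0.0009), GABARAPL1 (-0.035) and LAMP1 (0.027) in the second, and for TFEB (0.0053) and SQSTM1 (0.093) in the last. GABARAPL1 was at -0.025 under median-of-ratios scaling and at -0.029 in the authors' deposited table in the second, and ATG5 at 0.037 in the authors' deposited table in the last. Scaling moved the median of all genes by less than 0.1.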
